A study of Mus musculus with 2 samples.

Results

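The glucocorticoid response was followed through 9 genes across the cell types of aged mouse hindlimb muscle: the receptor gene Nr3c1, the steroid-activating enzyme gene Hsd11b1, and the receptor-induced genes Fkbp5, Tsc22d3, Zbtb16, Sgk1, Errfi1, Pdk4 and Ddit4. The 9 genes were taken by symbol and found among the 32285 genes of the single-cell RNA-Seq (scRNA-Seq) matrices, and every one had transcripts in both libraries. They were chosen by measured values: earlier results of these libraries had shown glucocorticoid-induced genes, Fkbp5 first, to be lower with treatment. Each difference between the libraries below is therefore a description of those same values and not independent evidence of its direction.

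Both libraries came from hindlimb muscle of female C57Bl/6J mice of 24 months. In the ATRA+agonist group, the muscle had received 3 intramuscular injections of all-trans retinoic acid (ATRA) with CD3254, an agonist of retinoid X receptor alpha, and BMS961, an agonist of retinoic acid receptor gamma. In the DMSO vehicle group, it had received injections of the solvent without these compounds. Muscle was digested and its cells were sorted with propidium iodide before capture. Cells of 2 mice were pooled before each library, which leaves 1 library per group, and a difference between the libraries cannot be told apart from a difference between those mice. No test of treatment was therefore possible, and every interval below covers counting error only.

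The glucocorticoid receptor is held in the cytoplasm by HSP90 and its co-chaperones. On binding corticosterone, the main glucocorticoid of mice, it enters the nucleus, binds glucocorticoid response elements and raises or lowers transcription of nearby genes. Within tissues, 11-beta-hydroxysteroid dehydrogenase type 1, encoded by Hsd11b1, turns the inert 11-dehydrocorticosterone back into corticosterone, and FKBP51, encoded by Fkbp5, reduces the receptor's affinity for hormone in a short feedback loop. In skeletal muscle, glucocorticoids are known for switching fuel use from glucose to fatty acids and, in excess, for atrophy.

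Promoter sequences are shown for 3 induced genes because the receptor's binding motif separates them. They are RefSeq windows on GRCm38.p6 that run from 250 bases before to 50 bases after a transcription start site. The search covered 3 motifs on both strands: the palindromic element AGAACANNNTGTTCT, its core GNACANNNTGTNC, and the half-site AGAACA, which every full element contains. Windows of 7 of the 9 genes were searched, 15 windows in all. The first window is the only one of the 15 with the full element, shown in capitals; the second has a half-site in capitals, and the third has none of the 3 motifs.
Sgk1, chr10:21993640-21993939, plus strand: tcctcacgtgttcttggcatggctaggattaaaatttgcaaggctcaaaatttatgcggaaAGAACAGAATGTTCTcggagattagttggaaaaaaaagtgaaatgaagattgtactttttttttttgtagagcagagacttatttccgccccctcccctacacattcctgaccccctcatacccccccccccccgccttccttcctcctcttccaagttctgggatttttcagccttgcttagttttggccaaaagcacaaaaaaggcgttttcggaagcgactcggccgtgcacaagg
Tsc22d3, chrX:140600473-140600772, minus strand: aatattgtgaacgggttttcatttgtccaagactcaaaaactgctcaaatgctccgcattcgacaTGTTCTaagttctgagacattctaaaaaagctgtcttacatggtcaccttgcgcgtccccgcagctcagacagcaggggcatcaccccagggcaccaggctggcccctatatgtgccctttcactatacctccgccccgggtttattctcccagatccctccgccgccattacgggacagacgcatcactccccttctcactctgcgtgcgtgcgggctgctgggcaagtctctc
Fkbp5, chr17:28486100-28486399, minus strand: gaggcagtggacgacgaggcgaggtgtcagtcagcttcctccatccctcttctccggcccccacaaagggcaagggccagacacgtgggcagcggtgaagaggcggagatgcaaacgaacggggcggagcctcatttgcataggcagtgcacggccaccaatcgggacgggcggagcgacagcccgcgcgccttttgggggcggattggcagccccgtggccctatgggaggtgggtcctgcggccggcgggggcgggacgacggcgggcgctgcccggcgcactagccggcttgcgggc

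The full element of Sgk1 begins at position -189 from that start site, at bases 21993701 to 21993715 of chromosome 10, within an intron of the longer Sgk1 transcripts in GENCODE M21. It was held by the windows of 3 of 27025 genes in the table (0.0111%). The core was held by 0.537% of genes and the half-site by 21.3%. The Sgk1 window holds 3 half-sites, 1 of them outside the element and left in lower case. The half-site of Tsc22d3 begins at position -185, just outside the gene models. Half-sites also stood in another pair of Sgk1 windows, and none was found in the windows of Hsd11b1, Fkbp5, Errfi1, Pdk4 or Ddit4. No window of Nr3c1 or Zbtb16 was searched, so nothing is said of their promoters. A match or its absence in 300 bases describes these letters and says nothing of binding, which was not measured here.

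Levels are given in CPM, a gene's unique molecular identifiers (UMIs, each marking 1 captured transcript) per 1000000 UMIs of the same cells. After the filters, 6907 of 10444 barcodes remained with ATRA+agonist and 6953 of 17394 with DMSO vehicle, with medians of 4695 and 4842 UMIs per cell. The cells fell into 25 clusters, of which 22 could be named by markers and formed 13 classes, each called "-like" because the names were rebuilt here. The 9 classes with at least 100 cells in both libraries were compared: endothelial-like, lymphatic endothelial-like, fibro-adipogenic progenitor (FAP)-like, tenocyte-like, muscle stem cell (MuSC)-like, smooth muscle or pericyte-like, neural (glial)-like, perineurial-like, and monocyte or macrophage-like. The libraries shared 43 barcode sequences, 9 of them among the kept cells of both.

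The libraries differed in features outside the pathway. The muscle fiber markers summed to 1619 CPM with ATRA+agonist and 59.2 CPM with DMSO vehicle, and 229 myonuclei-like cells were found with ATRA+agonist against 0 with DMSO vehicle. Hemoglobin genes summed to 333 CPM and 1013 CPM in the kept cells. The perineurial-like class stood apart: Malat1, a nuclear RNA, was at 5455 CPM with ATRA+agonist and 22967 CPM with DMSO vehicle, median UMIs per cell were 1227 and 2019, and 42.3% of all genes measured in it were at least 1.5-fold lower with ATRA+agonist. The part of these features in the values below was not tested, and counts are given with and without that class.

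Over all kept cells, 6 of the 9 genes were at least 1.5-fold lower with ATRA+agonist, and none was at least 1.5-fold higher. The count was 3 without the hemoglobin filter and 4 without doublet removal, with thinned cells or with equal weight per class. Among all 16921 genes with at least 50 summed UMIs, 10.4% were that much lower and 6.71% that much higher at the settings of the first count. Zbtb16 was at 87.6 CPM with ATRA+agonist and 256 CPM with DMSO vehicle, and Fkbp5 was at 64.7 CPM and 140.5 CPM. Ddit4, Sgk1, Errfi1 and Tsc22d3 lay between 1.51-fold and 1.63-fold lower. Pdk4 was 1.31-fold lower, Hsd11b1 differed by 1.03-fold, and the receptor gene itself was 1.13-fold higher.

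Within the compared classes, 68 of the 81 gene-by-class values had at least 50 summed UMIs. Of these, 37 were at least 1.5-fold lower with ATRA+agonist and 0 were at least 1.5-fold higher, where the shares over the values of all genes were 8.07% lower and 5.9% higher. Without the perineurial-like class, 31 of 61 were lower and 0 higher, beside 6.74% and 5.45% of all genes. The values that did not reach 1.5-fold were mostly those of Nr3c1, Sgk1, Errfi1, Pdk4 and Hsd11b1. Errfi1 was that much lower in 4 of its 9 measured classes. Because the genes were listed for this direction, the shares are given side by side and nothing is read from them.

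By class, the smooth muscle or pericyte-like cells had 6 of 7 measured genes at least 1.5-fold lower, beside 8.73% of all genes, with a median log2 ratio of -0.90 where all genes had 0.03. The tenocyte-like cells had 5 of 7, beside 9.39%, with a median of -1.14. The FAP-like cells had 5 of 9, beside 6.3%, and the same 5 genes were lower in both classes: Fkbp5, Tsc22d3, Zbtb16, Errfi1 and Ddit4. In the endothelial-like and MuSC-like cells only Fkbp5, Tsc22d3 and Zbtb16 reached the threshold, 3 of 8 and 3 of 9, beside 4.36% and 4.63%. In the lymphatic endothelial-like cells 2 of 6 did, beside 16%. The neural (glial)-like cells had 4 of 8, beside 8.94%, the monocyte or macrophage-like cells had 3 of 7, beside 3.88%, and the perineurial-like cells had 6 of 7, beside the share given above.

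**Figure D1:**
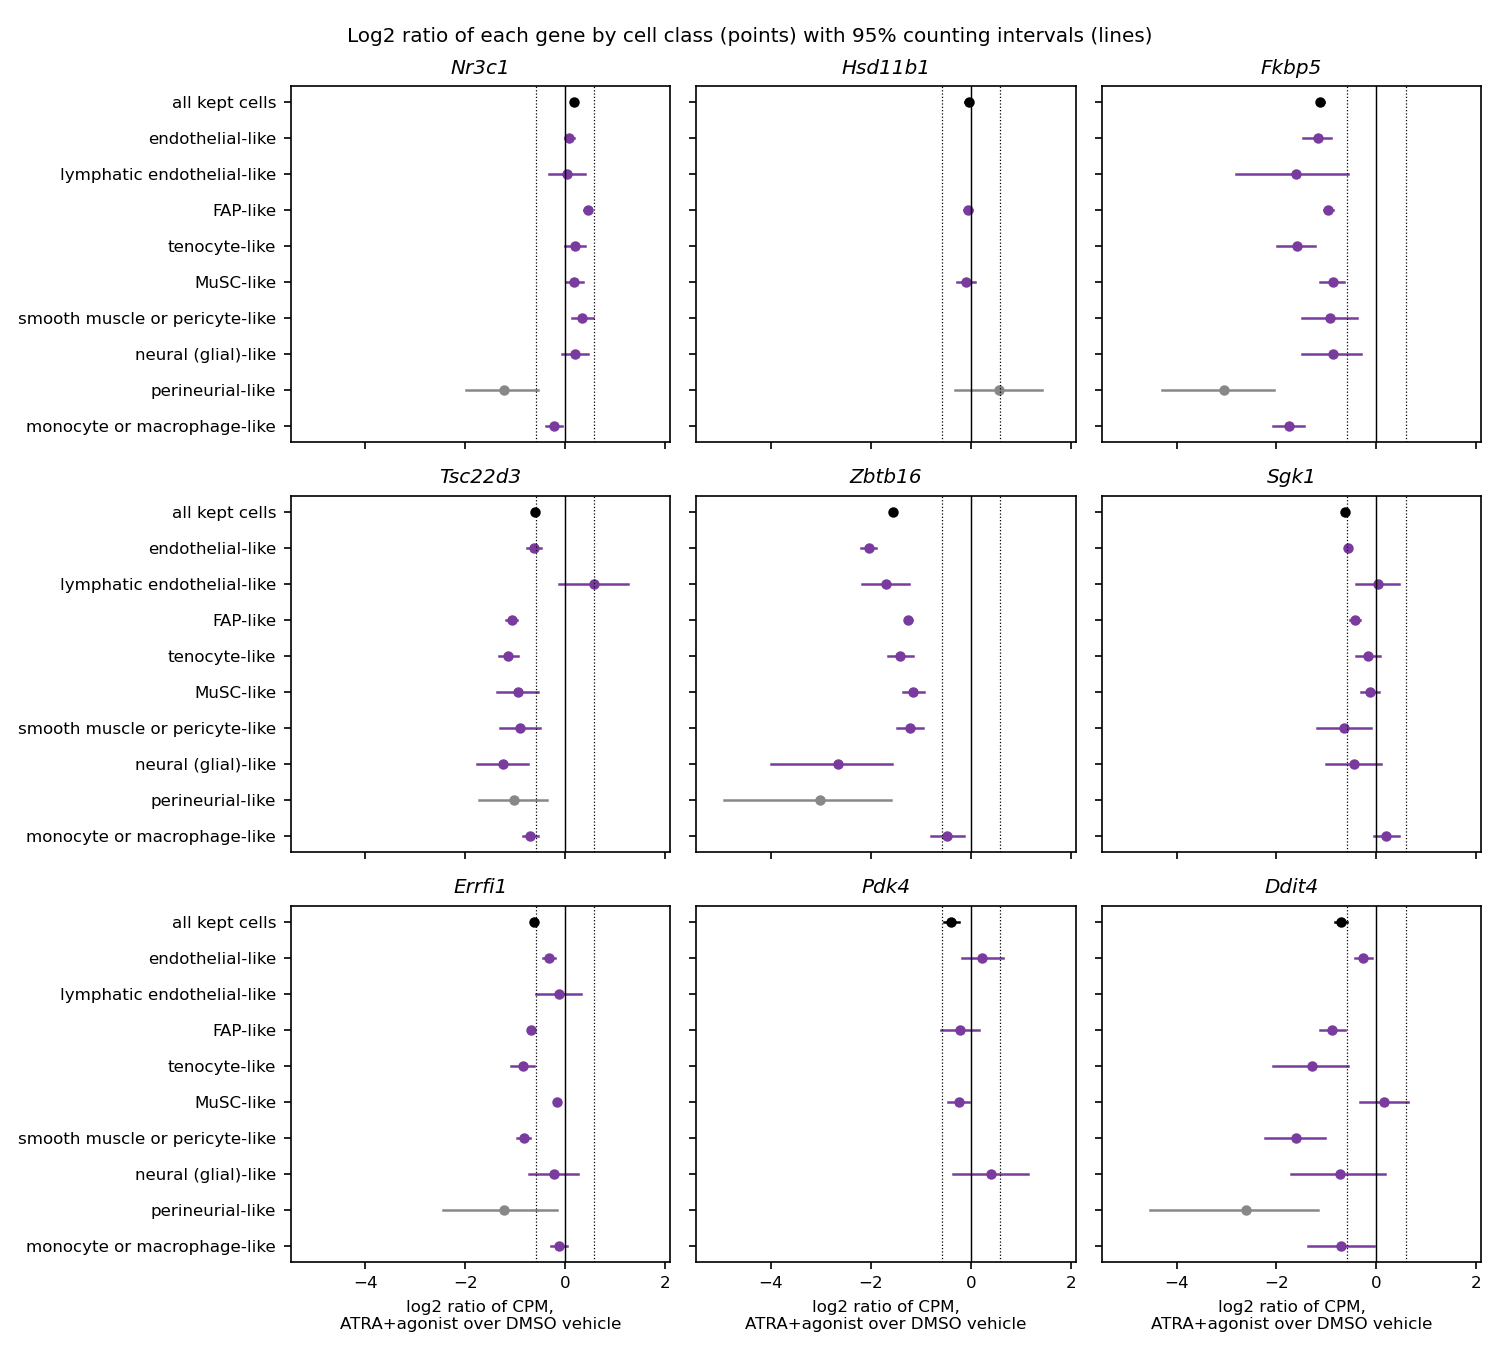
The log2 ratio of CPM, ATRA+agonist over DMSO vehicle, of each of the 9 genes in each compared class, with lines for 95% counting intervals; black points are all kept cells, gray points the perineurial-like cells, and dotted lines mark 1.5-fold. The points of Fkbp5 all lie left of the dotted line, between -3.06 and -0.87, while those of Nr3c1 other than the perineurial-like point lie between -0.22 and 0.45; values with under 50 summed UMIs are not drawn.

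Nr3c1, the receptor gene, was measured in every class. Its level with ATRA+agonist and DMSO vehicle was 377 and 368 CPM in the lymphatic endothelial-like cells, 364 and 287 CPM in the smooth muscle or pericyte-like cells, and 302 and 285 CPM in the endothelial-like cells. These vascular classes and the FAP-like cells headed the order in both libraries. The intervals of the lymphatic and the smooth muscle or pericyte-like cells met with ATRA+agonist and did not meet with DMSO vehicle. The FAP-like cells were at 308 CPM (95% Poisson interval 298 to 317) with ATRA+agonist and 225 CPM (217 to 233) with DMSO vehicle, a log2 ratio of 0.45 (0.38 to 0.52).

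The ratio in the FAP-like cells held in each of their 3 clusters: it was 0.50 in the cluster led by Cxcl14 and Smoc2, 0.42 in that led by Gdf10 and Fst, and 0.39 in that led by Sema3c and Pi16. In the smooth muscle or pericyte-like cells the log2 ratio was 0.35 (0.13 to 0.56), and in the MuSC-like cells, at 159 and 139.7 CPM, it was 0.18 (0.01 to 0.36). The monocyte or macrophage-like cells were at 121 and 141 CPM (log2 ratio -0.22, -0.38 to -0.05). Intervals of the endothelial-like, lymphatic endothelial-like, tenocyte-like and neural (glial)-like cells included 0. The perineurial-like ratio of -1.23 rested on 21 and 101 UMIs and took the other sign under 3 of the settings tried.

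With equal sequencing of every cell, thinned to 1000 UMIs, an Nr3c1 UMI was found in 24.5% of FAP-like cells with ATRA+agonist and 20.3% with DMSO vehicle, and in 26.3% and 23.1% of endothelial-like cells. The unthinned shares were 88.5% and 76.5% in FAP-like cells, whose median depth was 9903 and 7977 UMIs, and 47.7% and 52.9% in endothelial-like cells, at 2841.5 and 3319 UMIs. The order of the libraries by thinned share followed the CPM in both classes. An unnamed cluster that mixed mast cell and T cell markers had the highest Nr3c1 level of all, 562 and 943 CPM, and no direction is drawn from it because the cell types in it were not separated.

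Hsd11b1, whose enzyme regenerates corticosterone inside cells, was concentrated in the FAP-like and MuSC-like cells. The FAP-like cells were at 188 CPM (181 to 196) with ATRA+agonist and 195 CPM (187 to 202) with DMSO vehicle and held 73.2% and 74.6% of its UMIs, although they held 31.6% and 32.2% of all UMIs. The MuSC-like cells were at 132 and 141 CPM. These levels did not differ between the libraries beyond counting error, with log2 ratios of -0.05 (-0.13 to 0.03) and -0.09 (-0.27 to 0.09). Lower levels were found in the perineurial-like cells, at 79.2 and 53.3 CPM from 21 and 29 UMIs. The B cell-like cells were at 57.0 and 39.2 CPM, from 237 and 15 UMIs, and the neutrophil-like cells at 53.0 and 29.4 CPM, from 20 and 48 UMIs.

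Hsd11b1 also divided the FAP-like cells. In the Cxcl14 and Smoc2 cluster it was at 334 CPM with ATRA+agonist and 354 CPM with DMSO vehicle, in the Gdf10 and Fst cluster at 37.3 and 40.7 CPM, and in the Sema3c and Pi16 cluster at 29.2 and 39.3 CPM. It was left out when the cells were clustered, yet it stood among the 10 leading genes of the Cxcl14 and Smoc2 cluster. The endothelial-like cells, with 3 and 2 Hsd11b1 UMIs in 2404 and 2266 cells, and the monocyte or macrophage-like cells, with 1 and 2 UMIs, give the level of stray transcripts. After thinning, 13.1% and 14% of FAP-like cells had a UMI, against 0.104% and 0.0491% of endothelial-like cells.

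**Figure D2:**
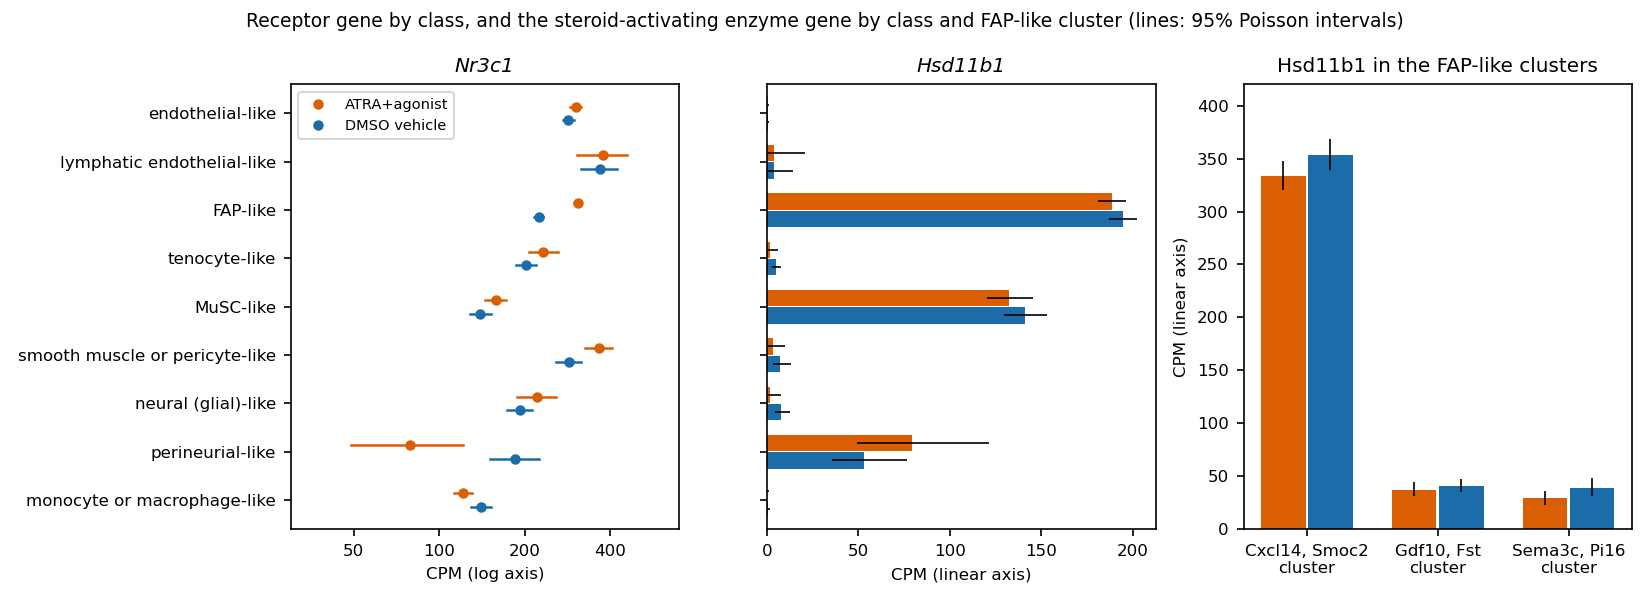
Left, Nr3c1 CPM (log axis) by compared class; middle and right, Hsd11b1 CPM (linear axis) by compared class and in the 3 FAP-like clusters, named by their leading genes, with orange for ATRA+agonist, blue for DMSO vehicle and lines for 95% Poisson intervals. Nr3c1 is highest in the lymphatic endothelial-like row, at 377 and 368 CPM, while Hsd11b1 is at 188 and 195 CPM in FAP-like cells, mostly in a single cluster at 334 and 354 CPM, and at most 7.57 CPM in 6 of the 9 classes.

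Fkbp5, the gene of the receptor's co-chaperone FKBP51, was at least 1.5-fold lower with ATRA+agonist in 9 of 9 classes, and every interval lay below 0. When cells were thinned to 1000 UMIs, the log2 ratio was -0.03 in the neural (glial)-like and -0.24 in the smooth muscle or pericyte-like cells, short of that threshold. In the FAP-like cells it was at 124 CPM (118 to 131) with ATRA+agonist and 242 CPM (234 to 251) with DMSO vehicle, from 1636 and 3153 UMIs, which is 1.95-fold lower. In the endothelial-like cells it was at 21.1 and 47.7 CPM, in the MuSC-like cells at 62.5 and 115 CPM, and in the monocyte or macrophage-like cells at 22.2 and 74.7 CPM.

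The size of that ratio differed among classes. The log2 ratio was -0.87 (-1.48 to -0.31) in the neural (glial)-like cells, -0.88 (-1.12 to -0.64) in the MuSC-like cells and -0.93 (-1.49 to -0.40) in the smooth muscle or pericyte-like cells, the smallest in size. It was -1.60 (-1.98 to -1.23) in the tenocyte-like cells, at 55.3 and 167 CPM, and -1.75 (-2.06 to -1.45) in the monocyte or macrophage-like cells, whose interval did not meet that of the MuSC-like or FAP-like cells. The lymphatic endothelial-like value of -1.61 rested on 9 and 53 UMIs and the perineurial-like value of -3.06 on 8 and 137 UMIs.

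The Fkbp5 ratio was below 0 in each of the 14 clusters of the compared classes with at least 50 summed UMIs, and at least 1.5-fold lower in 13 of them. Among the endothelial-like clusters, the log2 ratio was -0.86 (-1.24 to -0.48) in that led by Aqp1 and Kdr. It was -0.76 (-1.91 to 0.19) in that led by Cd274 and Gbp4, from 9 and 217 UMIs. In that led by Cytl1 and Nebl it was -1.72 (-3.02 to -0.62), and a shallow cluster had only 2 and 8 UMIs. The FAP-like clusters were unequal: the log2 ratio was -0.64 (-0.75 to -0.52) in the Cxcl14 and Smoc2 cluster, and -1.45 (-1.62 to -1.29) in the Gdf10 and Fst cluster, with 92.9 and 186 CPM in the Sema3c and Pi16 cluster between them. The cluster with the highest DMSO vehicle level of these, Gdf10 and Fst at 291 CPM, thus had 106 CPM with ATRA+agonist, below the 147 CPM of the Cxcl14 and Smoc2 cluster. Thinned shares of FAP-like cells with a UMI were 11.3% (9.58 to 13.1) and 20.8% (18.8 to 22.9), against unthinned shares of 51.9% and 67.9%.

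Among 1269 genes with enough UMIs in all 9 classes, 5 were at least 1.5-fold lower in every class, which is 0.394%, and the others besides Fkbp5 were the hemoglobin genes Hbb-bt, Hbb-bs, Hba-a1 and Hba-a2. Without the perineurial-like class it was 5 of 2261 genes, or 0.221%. Fkbp5 was also lower in the small dendritic-like class, at 25.1 and 53.9 CPM, and in the neutrophil-like class, at 29.1 and 57.6 CPM. In the B cell-like class it was at 38.5 and 49.7 CPM, and the interval of its log2 ratio, -1.06 to 0.40, included 0.

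Zbtb16, which encodes the transcription factor PLZF, had the largest median log2 ratio in size among the 9 genes over the compared classes, -1.41 against -1.18 for Fkbp5. In the endothelial-like cells it was at 59.6 CPM (54.1 to 65.6) with ATRA+agonist and 246 CPM (236 to 258) with DMSO vehicle, from 421 and 1959 UMIs, a 4.13-fold lower level and a log2 ratio of -2.05 (-2.20 to -1.89). Thinned shares of those cells with a UMI were 5.49% and 21.4%, against unthinned shares of 13.1% and 42.9%. The B cell-like cells, with 1 UMI in 641 cells and 0 in 66, served as the background.

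The endothelial-like class was composed of different clusters in the libraries. A cluster led by Aqp1 and Kdr held 1601 of its cells with ATRA+agonist and 722 with DMSO vehicle, and a cluster led by the interferon-induced genes Cd274 and Gbp4 held 78 and 1056. Zbtb16 was lower in both: at 62.1 and 224 CPM in the Aqp1 and Kdr cluster, and at 51.0 and 296 CPM in the Cd274 and Gbp4 cluster. In the cluster led by Cytl1 and Nebl it was at 107 and 166 CPM, and in a shallow cluster of 830 median UMIs only 5 and 6 UMIs were found.

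Among all compared classes, Zbtb16 was highest in the lymphatic endothelial-like cells, at 177 and 572 CPM, followed by the smooth muscle or pericyte-like cells at 173 and 402 CPM and the FAP-like cells at 167 and 397 CPM. Their log2 ratios were -1.69 (-2.17 to -1.24), -1.21 (-1.48 to -0.95) and -1.25 (-1.32 to -1.18). The MuSC-like cells were at 77.8 and 173 CPM and the tenocyte-like cells at 123 and 327 CPM. In the neural (glial)-like cells 7 and 118 UMIs gave 9.39 and 59.5 CPM. The monocyte or macrophage-like cells were the exception among the 9 classes, at 27.7 and 38.4 CPM, a log2 ratio of -0.47 (-0.80 to -0.14). Over the settings tried, that ratio ranged from -0.68 to 0.04. In the classes too small to compare the values ran the other way: 32 and 1 UMIs in dendritic-like cells, and 18 and 32 UMIs, or 47.7 and 19.6 CPM, in neutrophil-like cells.

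Tsc22d3 encodes GILZ, a leucine zipper protein through which glucocorticoids restrain inflammatory signaling. It was at least 1.5-fold lower with ATRA+agonist in 8 of 9 classes. The tenocyte-like cells had its highest level of the compared classes in both libraries, 211 CPM (186 to 238) with ATRA+agonist and 464 CPM (439 to 489) with DMSO vehicle. The FAP-like cells were at 85.5 and 179.8 CPM, the neural (glial)-like cells at 52.3 and 124 CPM, and the monocyte or macrophage-like cells at 124 and 201.2 CPM.

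Tsc22d3 separated the FAP-like clusters. It was at 88.3 and 218 CPM in the Cxcl14 and Smoc2 cluster (log2 ratio -1.30, -1.44 to -1.16) and at 101 and 181 CPM in the Gdf10 and Fst cluster (-0.84, -1.02 to -0.66), but at 58.7 and 68.7 CPM in the Sema3c and Pi16 cluster (-0.23, -0.56 to 0.10). The last cluster's interval included 0 and did not meet those of the other clusters. The lymphatic endothelial-like cells were the class outside the pattern, at 124 and 83.7 CPM from 33 and 43 UMIs (0.57, -0.13 to 1.26), and the sign there turned to -0.64 without the hemoglobin filter. B cell-like cells, at 291 and 241 CPM, had 25.4% of all Tsc22d3 UMIs with ATRA+agonist, so the ratio over all kept cells moves with the number of those cells.

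**Figure D3:**
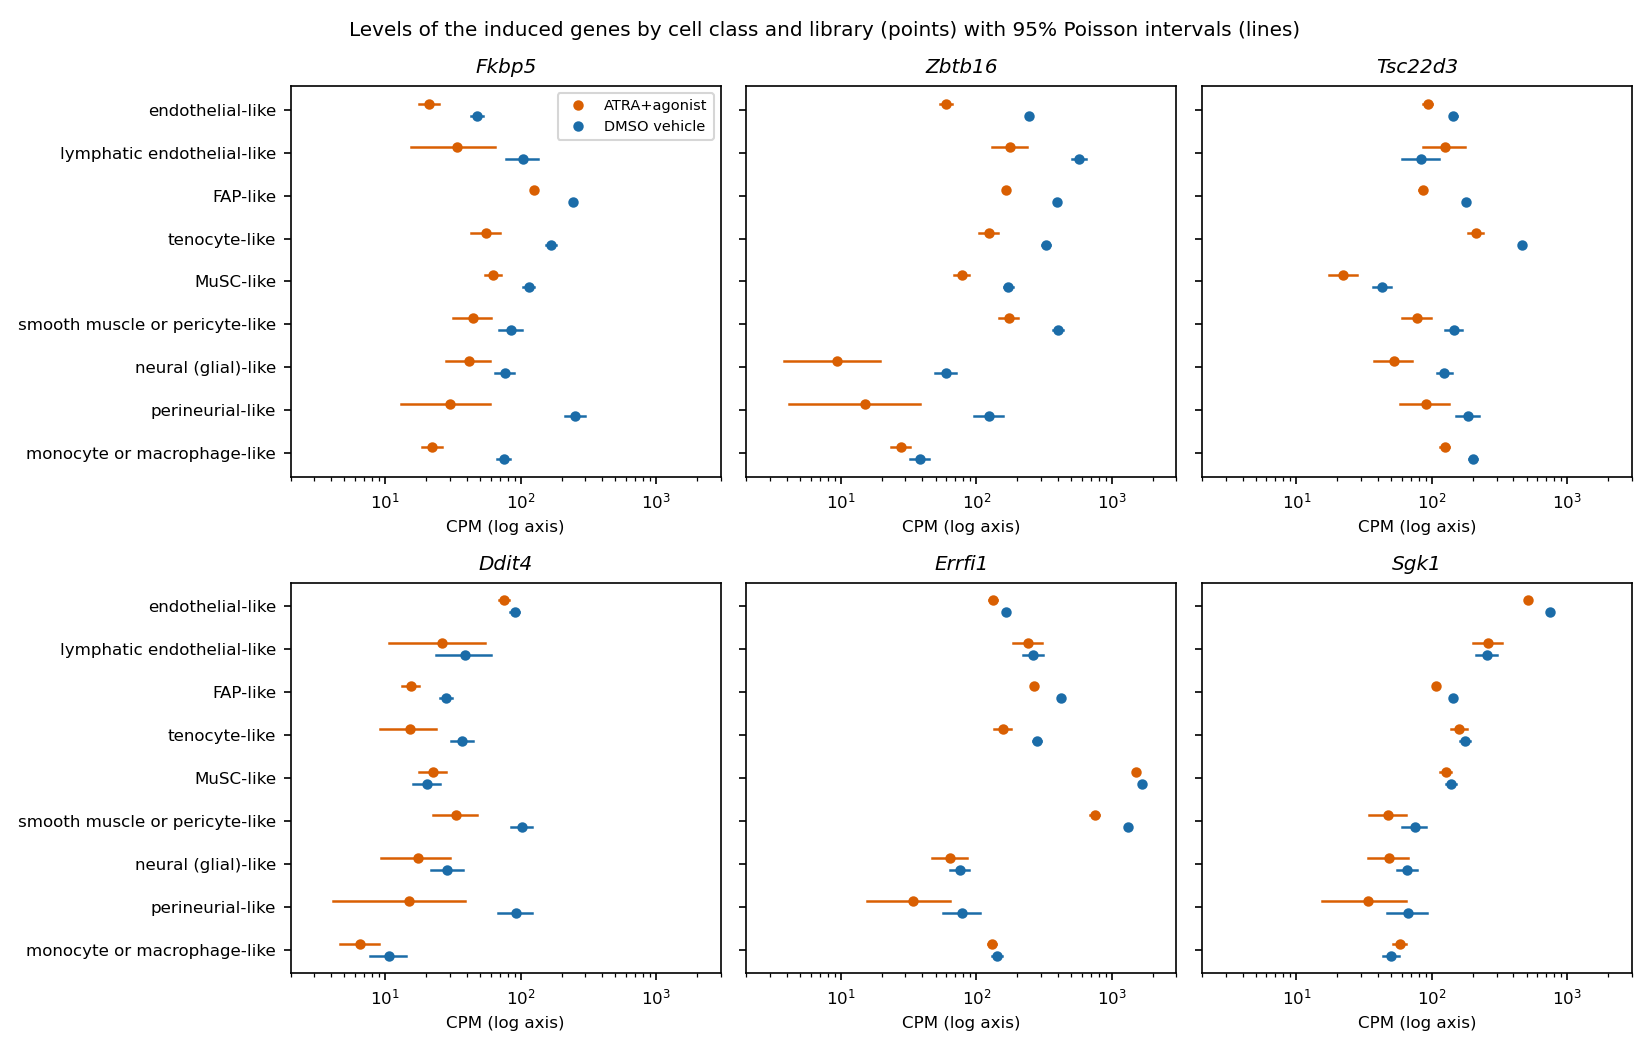
CPM (log axis) of 6 induced genes by compared class, orange for ATRA+agonist and blue for DMSO vehicle, with lines for 95% Poisson intervals. Fkbp5 and Zbtb16 are lower with ATRA+agonist in all 9 rows, while Sgk1 nearly coincides in the lymphatic endothelial-like row (259.9 and 255 CPM) and Errfi1 is highest in the MuSC-like row (1497 and 1676 CPM).

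Ddit4 encodes REDD1, an inhibitor of mTORC1 induced by glucocorticoids and by hypoxia. The smooth muscle or pericyte-like cells were at 33.3 CPM (22.5 to 47.6) with ATRA+agonist and 101 CPM (84.9 to 120.2) with DMSO vehicle, from 30 and 133 UMIs. In the pericyte-like cluster led by Abcc9 and Kcnj8 alone it was at 34.7 and 72.7 CPM, and the small smooth muscle cluster led by Acta2 and Tagln had 0 and 52 UMIs in 29 and 47 cells, an upper bound of -1.32 on the log2 ratio. The endothelial-like cells, which held 51.4% and 43.4% of its UMIs, were close to each other at 75.4 and 90.1 CPM (log2 ratio -0.26, -0.42 to -0.09).

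The FAP-like cells had Ddit4 at 15.4 and 28.2 CPM (-0.88, -1.13 to -0.63), and the tenocyte-like cells at 15.2 and 37.0 CPM (-1.28, -2.07 to -0.57). In the MuSC-like cells the level was 22.5 and 20.2 CPM, with an interval of -0.32 to 0.63 that included 0. In all, 6 of 8 measured classes were at least 1.5-fold lower, and the neural (glial)-like value rested on 13 and 57 UMIs with an interval that included 0.

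Errfi1 encodes MIG6, a feedback inhibitor of the epidermal growth factor receptor. The MuSC-like cells held 42.6% and 38.0% of its UMIs with 8.01% and 9.77% of all UMIs, at 1497 CPM with ATRA+agonist and 1676 CPM with DMSO vehicle. The difference there was 1.12-fold, a log2 ratio of -0.16 (-0.22 to -0.11), and the 2 MuSC-like clusters went apart: the Pax7 and Myf5 cluster was at 1410 and 1669 CPM, and a shallower cluster of 63 and 37 cells was at 2722 and 1918 CPM.

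Larger Errfi1 ratios were found in the supporting cells. It was at 746 and 1323 CPM in the smooth muscle or pericyte-like cells (-0.83, -0.96 to -0.70), at 156 and 282 CPM in the tenocyte-like cells (-0.85, -1.09 to -0.63), and at 265 and 425 CPM in the FAP-like cells (-0.68, -0.74 to -0.62). The intervals of these 3 classes did not meet that of the MuSC-like cells. In the lymphatic endothelial-like cells, at 241 and 263 CPM, and the monocyte or macrophage-like cells, at 131 and 142 CPM, the intervals included 0.

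Sgk1 encodes a kinase that acts on ion channels and on FOXO factors, and its promoter window above held the full element. It was mainly an endothelial transcript, with 55.4% and 60.7% of its UMIs in the endothelial-like cells at 509 CPM (493 to 526) with ATRA+agonist and 751 CPM (732 to 770) with DMSO vehicle. The log2 ratio of -0.56 (-0.62 to -0.50) lay just short of 1.5-fold, at 1.47-fold lower. By cluster it was at 560.3 and 917 CPM in the Aqp1 and Kdr cells, 507 and 756 CPM in the Cd274 and Gbp4 cells, and 204 and 318 CPM in the Cytl1 and Nebl cells.

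Just past the threshold, the smooth muscle or pericyte-like cells had Sgk1 at 47.8 and 74.7 CPM, 1.56-fold lower from 43 and 98 UMIs. The FAP-like cells were at 107 and 143 CPM (-0.42, -0.52 to -0.32). Intervals included 0 in 5 of the 8 measured classes, among them the lymphatic endothelial-like cells at 259.9 and 255 CPM, the MuSC-like cells at 126 and 137 CPM and the monocyte or macrophage-like cells at 57.8 and 50.2 CPM. The endothelial-like and lymphatic endothelial-like intervals of the Sgk1 ratio did not meet.

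Pdk4, pyruvate dehydrogenase kinase 4, holds back glucose oxidation. It was the sparsest of the 9 genes, with 640 and 819 UMIs in all kept cells and only 4 classes with at least 50. The MuSC-like cells held 50.9% and 55.9% of these UMIs, at 97.9 CPM (87.6 to 109) with ATRA+agonist and 116 CPM (105 to 127) with DMSO vehicle, a log2 ratio of -0.24 (-0.45 to -0.03). The endothelial-like cells were at 14.7 and 12.6 CPM, but their clusters differed in direction: the Aqp1 and Kdr cluster was at 17.7 and 9.30 CPM (0.93, 0.29 to 1.62), and the Cd274 and Gbp4 cluster had 0 and 71 UMIs, an upper bound of -0.40 on the log2 ratio. The FAP-like cells were at 8.44 and 9.75 CPM and the neural (glial)-like cells at 32.2 and 24.2 CPM. The intervals of these 3 classes included 0. The myonuclei-like cells of the ATRA+agonist library had 103 CPM from 39 UMIs, with no such cells to set beside them. The monocyte or macrophage-like cells had 0 UMIs with ATRA+agonist, which allows up to 0.516 CPM, and 4 UMIs with DMSO vehicle.

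The genes most like each member in their levels were found by Pearson correlation of log2(CPM + 10) over 24 class-by-library values, among 11238 genes. These values come from 2 libraries and share depth and class, so the correlations are descriptions. Hsd11b1 was most like Robo1 (0.84), Frmpd4 (0.82) and Dpt (0.81), Sgk1 most like Smad6 (0.88), Epha4 (0.87) and Dock4 (0.87), and Errfi1 most like Gm49959 (0.91) and Airn (0.87). Pdk4 was most like Sync (0.91), Dmpk and Rnf11 (both 0.86), and Nr3c1 most like Btrc (0.92), A330023F24Rik and Gm44148 (both 0.91). Zbtb16 was followed by Adamtsl4, P4htm and Tshz2 (0.88 to 0.89), and Ddit4 by Prpf40b, Tulp2 and Bcam (0.85 each).

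Fkbp5 and Tsc22d3 had looser neighbors: Snx12 (0.82), Glb1l (0.79) and Sec61a1 (0.76) for Fkbp5, and Pip4k2b (0.68), Stk26 (0.64) and Zfp958 (0.62) for Tsc22d3. By the ratios between the libraries over the 9 classes, the genes nearest to Fkbp5 among 1266 were Iigp1, an interferon-induced GTPase gene, then Ep400, Zbtb16, Hbb-bt and Peli1, at Euclidean distances of 2.02 to 2.58 log2 units.

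The wider pathway was read from 6 lists. The 10 chaperones that hold the receptor ready for hormone had 2 of 81 measured class values at least 1.5-fold lower and 2 higher (2.47% each), beside 8.07% and 5.9% of all genes. Without the perineurial-like class 0 of 75 were lower, beside 6.74%. Hsp90aa1, which encodes the inducible HSP90, was at 444 and 563 CPM over all kept cells and had a median log2 ratio of -0.30 over the classes, and Ptges3, which encodes the p23 co-chaperone, lay between -0.27 and -0.17 in 9 of 9 classes. Ppid and Bag1, also co-chaperone genes, had medians of 0.23 and 0.21. The 14 cofactors had 14 of 117 values lower (12.0%) and 1 higher (0.855%), beside 8.07% and 5.9% of all genes. Without the perineurial-like class 5 of 108 were lower (4.63%), where the share over all genes was 6.74%.

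Among the cofactors, Foxo3, a forkhead factor of the atrophy program, was at least 1.5-fold lower in 4 of 9 classes, the MuSC-like cells among them at 53.8 and 103 CPM (-0.93, -1.19 to -0.68). Cebpb was lower in 3 of 8, with 283 and 534 CPM in the smooth muscle or pericyte-like cells. The coactivator gene Crebbp had a median of -0.22.

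The list of steroid supply and related receptor genes had 4 of 21 values lower (19.0%) and 2 higher (9.52%), beside 8.07% and 5.9% of all genes. Without the perineurial-like class 2 of 18 were lower and 2 higher (11.1% each), beside 6.74% and 5.45%. Of the genes for steroid supply, Hsd11b2, which encodes the enzyme that inactivates corticosterone, was nearly confined to FAP-like cells among the compared classes, with 84 and 53 UMIs there at 6.39 and 4.07 CPM (0.65, 0.14 to 1.17). H6pd, which encodes the enzyme that supplies NADPH to the Hsd11b1 product, was at 43.6 and 51.7 CPM in those cells. Nr3c2, the mineralocorticoid receptor gene, was highest in the lymphatic endothelial-like cells at 557 and 560.5 CPM and was at 334 and 285 CPM in the MuSC-like cells (0.23, 0.11 to 0.35). It was at least 1.5-fold lower in 3 of 9 classes: the neural (glial)-like cells at 118 and 189 CPM, the monocyte or macrophage-like cells at 11.9 and 19.6 CPM, and the perineurial-like cells with 5 and 129 UMIs. Abcb1a, a drug and steroid efflux pump gene, was at 258 and 217 CPM in the endothelial-like cells, and Srd5a1 had 71 and 76 UMIs in all kept cells.

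The 33 other glucocorticoid-induced genes, compiled with the earlier results known, had 56 of 211 measured class values at least 1.5-fold lower (26.5%) and 9 higher (4.27%). The shares over all genes were 8.07% and 5.9%. Without the perineurial-like class 44 of 194 were lower (22.7%), beside 6.74% of all genes. Over all kept cells 11 of the 33 were lower, beside 10.4% of all genes, with a median log2 ratio of -0.41 where all genes had -0.01. Because the list was compiled with those results known, nothing is read from these shares. Klf15, a muscle factor that drives amino acid breakdown, was lower in 3 of 3 measured classes, with 66 and 158 UMIs in the FAP-like cells (-1.27, -1.71 to -0.85). The metallothionein genes Mt1 and Mt2 were lower in 5 of 8 and 6 of 8 classes. Mt1 was at 924 and 1583 CPM in the FAP-like cells, and Mertk, a receptor gene for clearing dead cells, was at 71.0 and 105 CPM in the monocyte or macrophage-like cells.

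The muscle atrophy list had 9 of 51 values lower (17.6%) and 2 higher (3.92%), beside 8.07% and 5.9% of all genes. Without the perineurial-like class it had 7 of 48 lower (14.6%) and 1 higher, beside 6.74% and 5.45%. It shares Foxo3, Foxo1, Klf15 and Sesn1 with the lists above, and of its other named genes Eif4ebp1 had a median of 0.31 and Fbxo30 one of -0.27. The 17 genes that glucocorticoids repress had 19 of 65 values lower (29.2%) and 4 higher (6.15%), beside 8.07% and 5.9% of all genes. Without the perineurial-like class 15 of 60 were lower (25%), beside 6.74%. What lies behind these counts was not tested. The genes of this list diverged by class. Ccl2, a monocyte chemokine gene, was at 50.9 and 159.8 CPM in the FAP-like cells but at 238 and 84.0 CPM in the tenocyte-like cells. Vcam1, a leukocyte adhesion gene, was at 21.1 and 93.0 CPM in the endothelial-like cells but at 316 and 229 CPM in the MuSC-like cells. Il6 was at 69.8 and 89.4 CPM and Ptgs2 at 184 and 222 CPM in the FAP-like cells.

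**Figure D4:**
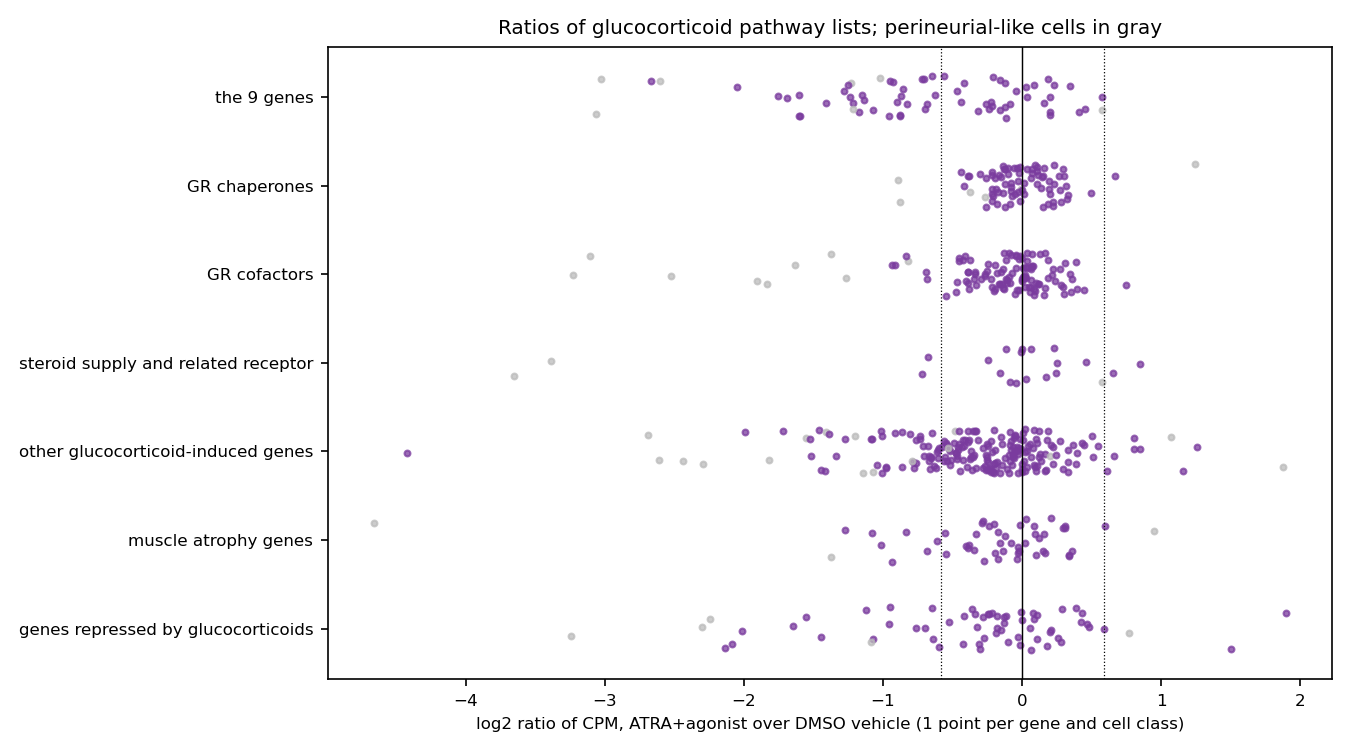
The log2 ratio of CPM, ATRA+agonist over DMSO vehicle, of every gene of 7 lists in each compared class with at least 50 summed UMIs, 1 point per gene and class; gray points are perineurial-like cells and dotted lines mark 1.5-fold. The chaperone points crowd around 0, with 0 of 75 at least 1.5-fold lower outside the gray points, while 31 of 61 points of the 9 genes and 44 of 194 points of the other induced genes lie left of the dotted line. Over all genes the share left of that line, without the gray points, was 6.74%.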

How the data were processed

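Cells of hindlimb muscle were profiled by droplet-based scRNA-Seq, with 1 library for each of the 2 groups. Raw UMI counts, a whole number for each gene in each barcode, were deposited by the authors. Per the file headers they were produced by Cell Ranger 7.2.0, and the 3' reads of the 10x platform had been aligned to mm10 (GRCm38). UMIs mark molecules, so PCR copies were counted once. Which annotation release was used is not given in the sources used here, and gene positions were taken from GENCODE M21. The libraries held 10444 barcodes with 65197625 UMIs (ATRA+agonist) and 17394 barcodes with 109343486 UMIs (DMSO vehicle).

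Barcodes were kept with 300 to 5000 genes, under 20% mitochondrial UMIs and under 0.25% UMIs of genes starting with Hbb-, the limits of the study's methods. Doublets were scored in each library against artificial doublets, set to 20% of the merged cells, and the highest 7.5% were removed. Cells of both libraries were then clustered jointly, with no correction for library. Each cell was normalized to a total of 10000 before the log transform, and 2000 variable genes, without the 9 genes and the pathway lists, gave 30 principal components, a graph of 20 neighbors and Louvain clusters at resolution 0.8. A cluster was named from at least 3 markers that were 2-fold higher in it than outside it. Classes with at least 100 cells per library were compared, and the main ratios were read for genes with at least 50 summed UMIs over both libraries.

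UMIs were summed per library and class and given as CPM with exact Poisson 95% intervals, shares of cells with exact binomial (Clopper-Pearson) intervals, and ratios with exact conditional binomial intervals. A count of 0 was given the limit that 3 counts would set. Thinned shares used 1000 UMIs drawn per cell, shallower cells left out. No p-value was computed: cells of 1 library are not replicates, although the study's methods tested them as such. The scripts were checked on simulated counts.

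The 9 genes and the pathway lists were chosen with earlier results of these data known. Besides the 9, the text names each steroid supply gene, up to 4 genes per other list with the largest absolute median log2 ratio (measured in at least 3 classes), and for each of the 9 genes the 3 most correlated genes with at least 500 UMIs. The 5 genes nearest to Fkbp5 by ratios were also named. Of the genes that this rule names, 2 are not reported here. Foxo1 and Sesn1 are named only as genes shared by lists, and the class shown for a list gene was picked after its values were seen. Alternatives covered the cell filters, doublet removal, resolution, clustering genes, cell assignment, scaling, weighting, the UMI minimum and the fold threshold, and 1 more, leaving out the perineurial-like class, was added after the data were seen. Python 3.11.15, numpy 2.4.6, scipy 1.17.1, pandas 2.3.3, scikit-learn 1.9.0, python-igraph 0.11.9 and matplotlib 3.10.9 were used.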

Additional observations from a re-analysis of the deposited data

Results flagged for a closer look

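Nr3c1, the receptor gene, had ratios of opposite sign in different classes. The log2 ratio, ATRA+agonist over DMSO vehicle, was 0.45 in the FAP-like cells, 0.35 in the smooth muscle or pericyte-like cells and 0.18 in the MuSC-like cells, with counting intervals above 0. It was -0.22 in the monocyte or macrophage-like cells and -1.23 in the perineurial-like cells, with intervals below 0. Over the settings tried, the first of these ranged from -0.31 to -0.02. The perineurial-like value rested on 21 and 101 UMIs, ranged up to 0.58, and lay in a class where the median of all genes was -0.32. The difference between classes was not tested, because each class came from 1 library per group.

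Barcodes outside the comparisons also held transcripts of the 9 genes. In the 1109 ATRA+agonist and 2501 DMSO vehicle barcodes that had at least 300 genes and were removed by a later filter, Nr3c1 was at 229 and 171 CPM and Errfi1 at 210 and 188 CPM. Zbtb16 was at 62.5 and 119 CPM there and Fkbp5 at 48.5 and 71.3 CPM. Of the others, Sgk1 was at 159.7 and 159.8 CPM, Tsc22d3 at 90.3 and 99.4 CPM and Ddit4 at 31.2 and 26.8 CPM. Hsd11b1 was at 44.1 and 43.5 CPM and Pdk4 at 9.11 and 12.4 CPM. Hemoglobin genes held 11% and 27.6% of the UMIs of these barcodes, and the part of that difference in the values was not tested.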

How the results depend on the processing

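Each group was 1 library of pooled mice, so an effect of treatment cannot be told apart from one of mice, digestion or library, and depth limits the values of the small classes. No paired analysis was possible because each group has 1 library and no result comes from a test. In the 13 alternatives that gave ratios by class, 744 of 819 values stayed within their counting interval. In all, 45 took the other sign, and 7 of these had been at least 1.5-fold lower. Of the values that were at least 1.5-fold lower, 94 of 94 remained so for Zbtb16, 105 of 107 for Fkbp5 (the exceptions were 2 thinned values), 92 of 100 for Tsc22d3, 69 of 73 for Ddit4, 43 of 48 for Errfi1, 11 of 13 for Sgk1 and 4 of 9 for Nr3c1. Some alternatives left only 7 or 8 of the compared classes. The cause of the movements listed next was not tested.

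In the perineurial-like cells the log2 ratio of Nr3c1 turned to 0.41 without doublet removal, 0.28 without the hemoglobin filter and 0.58 at a mitochondrial limit of 10%. That of Errfi1 turned to 0.29 without doublet removal, 0.45 without the hemoglobin filter, 0.37 with a minimum of 500 genes and 0.50 with thinned cells.

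Over all kept cells, log2 ratios moved beyond their counting interval as follows. Without doublet removal, Sgk1 and Errfi1 were both at -0.57, and at a doublet rate of 15% Zbtb16 was at -1.61 and Sgk1 at -0.72. Without the hemoglobin filter, Nr3c1 was at 0.25, Hsd11b1 at 0.075, Fkbp5 at -1.02, Tsc22d3 at -0.50, Zbtb16 at -1.45, Sgk1 at -0.57 and Errfi1 at -0.50. Sgk1 was at -0.58 with a minimum of 500 genes, and Errfi1 at -0.56 with no maximum of genes. With thinned cells, Hsd11b1 was at -0.12, Fkbp5 at -1.22, Tsc22d3 at -0.54, Zbtb16 at -1.88, Sgk1 at -0.55 and Errfi1 at -0.71. With equal weight per cell, Nr3c1 was at 0.10, Hsd11b1 at -0.17, Fkbp5 at -1.38, Zbtb16 at -1.82 and Errfi1 at -0.75. With equal weight per class, Nr3c1 was at 0.10, Fkbp5 at -1.42, Tsc22d3 at -0.83, Zbtb16 at -1.49, Sgk1 at -0.35, Errfi1 at -0.44 and Ddit4 at -0.98.

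Of the class values, 18 of 41 measured were at least 1.5-fold lower with thinned cells, and 22 of 68 were at least 2-fold lower. The shares over all genes were not computed for thinned cells or at 2-fold, so nothing is read from these counts. The number at least 1.5-fold higher was 2 at a doublet rate of 15% (Tsc22d3 in lymphatic endothelial-like and Pdk4 in neural (glial)-like cells) and 2 with median-of-ratios scaling (Hsd11b1 in perineurial-like and Tsc22d3 in lymphatic endothelial-like cells). Thinned levels, ATRA+agonist before DMSO vehicle, that left the Poisson interval were 168 and 175 CPM for Hsd11b1 in FAP-like cells, 253 CPM for Fkbp5 in FAP-like cells with DMSO vehicle, 287.5 and 507 CPM for Tsc22d3 in tenocyte-like cells, 550.5 and 774 CPM for Sgk1 in endothelial-like cells, and 1671 and 1943 CPM for Errfi1 and 129 and 147 CPM for Pdk4 in MuSC-like cells.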

Other observations

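A cluster led by Car3 and Cfd matched no class by its markers and stayed unnamed. In it Zbtb16 was at 447.5 CPM with ATRA+agonist and 1067 CPM with DMSO vehicle, above its level in every named class that was compared, and Fkbp5 was at 235 and 539 CPM.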
